A study of Mus musculus with 18 samples.

Results

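The early step of reprogramming described here is the change from day 11 to day 15 in mouse cultures given OCK, the factors Oct4, c-Myc and Klf4, which lack the Sox2 of the usual cocktail. It was measured on 4 of the 18 arrays of the study, chosen by their labels: a culture labelled Tcf3 wt and a culture labelled Tcf3 ko, each on day 11 and on day 15, with 1 array per genotype and day. Tcf3 is the older name of Tcf7l1, a DNA-binding protein of the Wnt pathway that represses its target genes when beta-catenin is absent, and ko stands for its knockout. All 4 arrays came from cultures with the OCK factors, and none had an siRNA. The other arrays used beside them were the same 2 cultures on days 19, 22 and 26, 5 iPSC clones (1 OSK wt, 2 OSK ko and 2 OCK ko, where OSK is Oct4, Sox2 and Klf4), and 3 arrays of a partial OCK iPSC clone of wt genotype after control or Tcf3 siRNA. The labels do not say whether the days came from separate dishes, which cells were started from, or how the knockout was made. Every p-value here thus rests on the scatter of single arrays, part of which can be technical. The study asked how Wnt signalling and Tcf proteins act at different stages of reprogramming, and this step is its earliest interval on the arrays.

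As background, forced expression of reprogramming factors takes a somatic culture through stages in which somatic genes are lost and genes of the pluripotent state come on late and in few cells. Such cultures remain mixtures, and cells can take on transient programs of other tissues on the way. The cornified envelope, which appears below, is the cross-linked protein coat that keratinocytes build as they leave the cell cycle, from loricrin, small proline-rich and late cornified envelope proteins. Adipocytes are marked by proteins of fatty acid uptake, lipid droplets and secreted hormones such as adiponectin.

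Values are log2 RMA signals, and 5.64, the log2 of 50, is the floor of the table, which stands for any lower level. A step is day 15 minus day 11 within a genotype, and the step of a gene is the mean of its wt and ko steps. Signals of different genes are not compared, since each probe set has its own scale. In bulk RNA, fewer cells of a type and less RNA per cell cannot be told apart. The 4 arrays had between 12296 and 12499 genes above the floor of 17903 measured. All 8 fibroblast markers on the array were above the floor on all 4 arrays, with medians between 13.25 and 13.40. The medians of the endothelial and muscle markers were at the floor on all 4 arrays. Tcf7l1 itself was at 9.90 and 9.70 in the wt culture on days 11 and 15 and at 9.48 and 9.37 in the ko culture. The ko signal was the lower on both days but far above the floor, and the sources used here do not say whether the probe set lies in the deleted stretch, so the signal does not settle the genotype labels.

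Adipoq and other genes of the fat cell rose, and Rptn, Lor and other genes of the cornified epidermis fell, in both genotypes between day 11 and day 15. Of 12844 genes tested with limma, 17 rose (0.132%) and 32 fell (0.249%) at an adjusted p under 0.05, and all 49 had the same sign in wt and ko. That agreement is largely built into the test, since a gap between the wt and ko steps adds to its error. Of all genes tested, 31.2% were positive and 32.7% negative in both genotypes. At an unadjusted p under 0.05, 650 were higher (5.06%) and 716 lower (5.57%). By size alone, 44 genes were at least 2-fold higher in both genotypes (0.343%) and 47 at least 2-fold lower in both (0.366%). At 1.5-fold these counts were 115 (0.895%) and 169 (1.32%), and at 4-fold 6 (0.0467%) and 4 (0.0311%). Taken alone, the wt culture had 128 genes at least 2-fold higher (0.997%) and 143 lower (1.11%), against 60 (0.467%) and 62 (0.483%) for the ko culture. The correlation of the wt and ko steps across the 12844 genes was 0.601, a description, since genes are not independent replicates. The calls need all 4 arrays: 1 of the 49 was kept without the wt array of day 11 and 1 without the wt array of day 15, 10 without the ko array of day 11 and 16 without the ko array of day 15. The error came from the deviations of both genotypes over all 5 days. The 4 arrays fitted by themselves called 178 genes higher and 245 lower, with 1 residual degree of freedom.

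**Figure D1:**
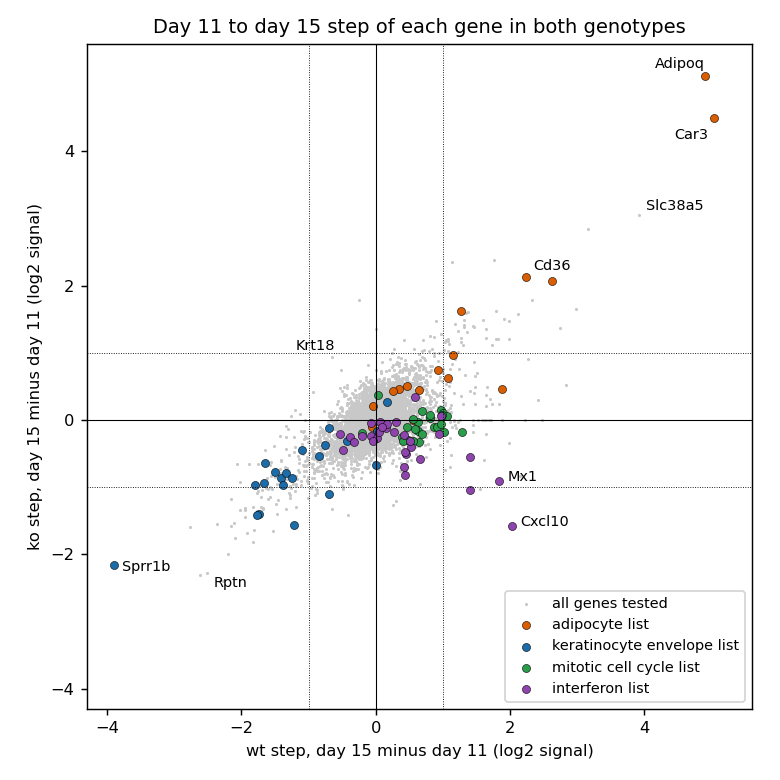
Each point is 1 of 12844 genes, with the wt step (day 15 minus day 11, log2 signal) on the x axis and the ko step on the y axis. Adipoq and Car3 of the adipocyte list lie at the upper right, Sprr1b of the keratinocyte envelope list at the lower left, and Cxcl10 and Mx1 of the interferon list to the lower right, positive in wt and negative in ko. Dotted lines mark a 2-fold step.

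The promoters of 2 of the genes that were higher and 2 that were lower are shown as examples, picked because their upstream sequences differ in the letters described here. They do not represent their groups: 9 of the 30 lower genes with a promoter held the AP-1 letters. Cidec and Sprr1b were at least 2-fold changed in both genotypes but did not pass the test. Each is the 250 bases before a RefSeq transcription start on GRCm38.p6, written 5′ to 3′ on the strand of the gene. Capitals mark the letters TGANTCA, the site of AP-1 (Fos and Jun), or TTGCNNAA, a site of the C/EBP factors, searched on both strands. Adipoq (adiponectin, chr16:23146286-23146535, plus strand) held neither, Cidec (a lipid droplet protein, upstream of 1 of its 2 starts, chr6:113434765-113435014, minus strand) held 1 of each, and Lor (loricrin, chr3:92083143-92083392, minus strand) and Sprr1b (a small proline-rich protein, chr3:92438780-92439029, minus strand) each held 1 AP-1 match.
Adipoq: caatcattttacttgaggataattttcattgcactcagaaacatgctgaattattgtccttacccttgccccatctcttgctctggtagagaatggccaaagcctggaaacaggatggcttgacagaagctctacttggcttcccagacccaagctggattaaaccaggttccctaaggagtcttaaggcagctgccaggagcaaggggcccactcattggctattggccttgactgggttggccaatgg
Cidec: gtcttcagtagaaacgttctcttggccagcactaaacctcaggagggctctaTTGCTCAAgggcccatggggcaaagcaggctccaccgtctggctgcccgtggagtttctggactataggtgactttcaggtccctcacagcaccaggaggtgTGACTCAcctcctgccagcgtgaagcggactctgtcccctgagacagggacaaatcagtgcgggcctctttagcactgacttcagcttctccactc
Lor: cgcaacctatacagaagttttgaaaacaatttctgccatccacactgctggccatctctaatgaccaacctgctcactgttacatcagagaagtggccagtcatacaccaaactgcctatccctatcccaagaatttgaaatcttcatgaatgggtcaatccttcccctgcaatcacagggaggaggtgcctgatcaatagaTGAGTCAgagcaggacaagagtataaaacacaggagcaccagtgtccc
Sprr1b: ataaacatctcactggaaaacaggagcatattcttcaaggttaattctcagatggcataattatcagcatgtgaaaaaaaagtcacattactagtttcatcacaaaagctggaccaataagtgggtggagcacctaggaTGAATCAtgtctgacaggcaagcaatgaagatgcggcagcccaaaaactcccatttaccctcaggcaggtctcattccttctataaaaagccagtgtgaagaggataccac
The AP-1 letters lie between 48 and 42 bases before the start of Lor and between 111 and 105 bases before that of Sprr1b.

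RefSeq promoters were found for 30 of the 47 genes at least 2-fold lower, in 33 windows, and 10 of those windows (30.3%) held TGANTCA. The same letters were in 3 of 44 windows (6.82%) of 32 genes at least 2-fold higher and in 6.75% of all 32851 windows. The 9 lower genes with the letters were Anxa10, Lor, Rptn, Serpinb11, Serpinb2, Serpinb5, Sprr1b, Sprr2d and Tmem40, some of them related copies that share sequence. TTGCNNAA was in 7 windows (21.2%) of the lower genes and 8 (18.2%) of the higher genes, against 9.56% of all windows. Both groups thus held the C/EBP letters at a like share. The AP-1 letters had a larger share among the windows of the lower genes, though most of these windows lacked them. The motifs were chosen after the genes were known, no test was made, and a match is not a binding site.

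Of the 16 adipocyte genes tested, 5 rose, 0 fell and 12 had an unadjusted p under 0.05 and a positive step. Over all genes tested 0.132% rose, and 5.06% had such a p and a positive step. The median step of the list was 0.84, with 1.00 in wt and 0.56 in ko, against 0.00 over all genes tested. Of its members 13 were positive in both genotypes, as were 31.2% of all genes tested. Adipoq, the adipocyte hormone adiponectin, had a wt signal of 7.0 on day 11 and 11.91 on day 15, and a ko signal of 6.05 and 11.17. Both day 15 arrays lay far above both day 11 arrays, which is no added support in a gene named for its large step. The share of all genes with such a separation was not counted. Its signal rose 32.3-fold (log2 step 5.02 ± 0.13 SE, adjusted p = 4.24e-05). It was also the 1 gene of the 49 still called whichever of the 4 arrays was left out.

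Car3, a carbonic anhydrase abundant in fat and muscle, went from 6.59 to 11.63 in wt and from 5.99 to 10.48 in ko, a rise of 27.2-fold (4.76 ± 0.52 SE, adjusted p = 0.0246). Cd36, which takes up fatty acids, went from 7.79 to 10.03 in wt and from 7.30 to 9.44 in ko (2.19 ± 0.26 SE, adjusted p = 0.0366). In both genes the day 15 arrays lay above the day 11 arrays, which follows from picking genes with large steps in both genotypes. G0s2, an inhibitor of fat breakdown, rose from 8.81 to 10.08 in wt and from 8.02 to 9.65 in ko (1.45 ± 0.19 SE, adjusted p = 0.0428). Fabp4, a carrier of fatty acids in the cytosol, rose from 12.32 to 13.47 and from 11.88 to 12.85 (1.06 ± 0.13 SE, adjusted p = 0.04). Fabp4 was thus well above the floor before the step, while Adipoq and Car3 were nearer to it. With probe sets averaged per gene, the step of Car3 was 2.41 (adjusted p = 0.0962), that of Cd36 1.35 (adjusted p = 0.0875) and that of Fabp4 0.62 (adjusted p = 0.13), so these calls were lost. The other Car3 probe set went from 5.92 to 9.14 in wt and from 5.83 to 7.57 in ko.

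Gpd1, outside the list, makes the glycerol backbone of triglycerides and rose from 6.47 to 8.28 in wt and from 6.30 to 7.50 in ko (1.51 ± 0.15 SE, adjusted p = 0.0194), or by 0.52 with the mean of its probe sets (adjusted p = 0.0665). Cidec, which promotes the growth of lipid droplets, was at the floor on both day 11 arrays and at 8.27 in wt and 7.72 in ko on day 15, at least 5.10-fold higher, with an adjusted p of 0.0694. Mrap, an accessory protein of the corticotropin receptor, was likewise at the floor on day 11 and at 7.63 and 6.85 on day 15 (adjusted p = 0.171). Cidec and Mrap thus had large steps in both genotypes without passing the test.

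The enzymes and regulators of the program had smaller steps. Dgat2, which makes triglycerides, had a step of 0.84 ± 0.17 SE, Lipe, which breaks them down, 0.55 ± 0.13, and Retn, the hormone resistin, 0.85 ± 0.14, and none of them passed the test. Plin4, a coat protein of lipid droplets, went from 6.77 to 8.65 in wt and from 6.96 to 7.42 in ko, so its step was mostly that of the wt culture. Pparg, the nuclear receptor at the head of the program, went from 8.24 to 8.70 in wt and from 7.85 to 8.35 in ko (adjusted p = 0.474). Cebpa, its partner, had a step of 0.08 ± 0.14 SE, and Acaca, of fatty acid synthesis, one of -0.08 ± 0.12. Both regulators were well above the floor on day 11, as were Fabp4 and G0s2 among the markers. Cidea, a relative of Cidec known from brown fat, went the other way and fell from 6.91 to 5.83 in wt and from 6.67 to 5.92 in ko (-0.91 ± 0.12 SE, adjusted p = 0.043).

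**Figure D2:**
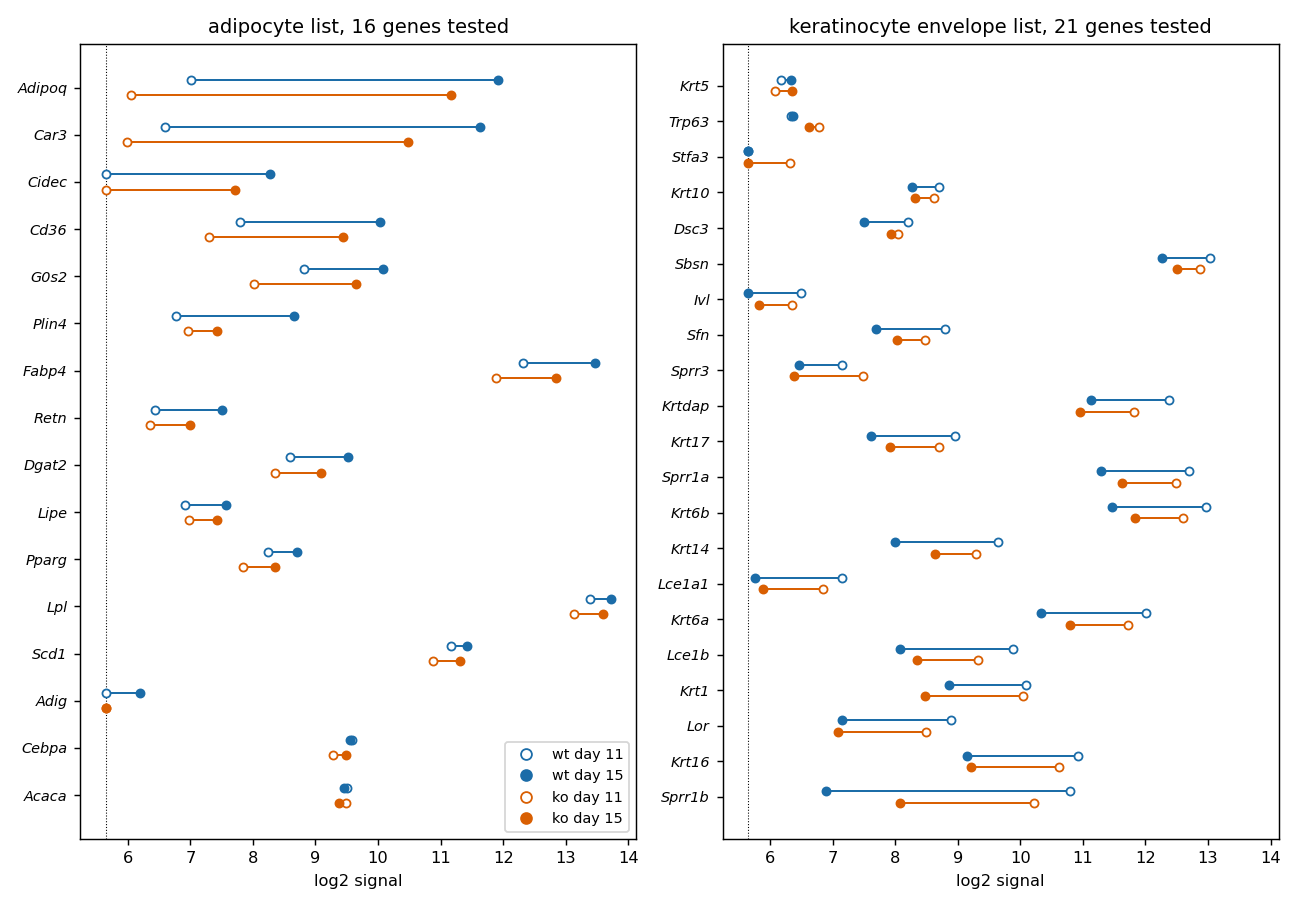
Log2 signal on day 11 (open circles) and day 15 (filled circles) of the wt culture (blue) and the ko culture (orange) for each tested gene of the adipocyte list (16 genes) and the keratinocyte envelope list (21 genes), ordered by step, with the floor as a dotted line. Filled circles lie to the right of open ones for 13 adipocyte genes and to the left for 18 envelope genes in both genotypes.

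Of the 21 keratinocyte envelope genes tested, 3 fell, 0 rose, and 14 had an unadjusted p under 0.05 and a negative step. Over all genes tested 0.249% fell, and 5.57% had such a p and a negative step. The median step was -1.06, with -1.25 in wt and -0.78 in ko, and 18 members were negative in both genotypes, as were 32.7% of all genes tested. Lor, the main protein of the envelope, fell from 8.90 to 7.15 in wt and from 8.49 to 7.09 in ko (-1.57 ± 0.20 SE, adjusted p = 0.043). Lce1b, a late cornified envelope protein, fell from 9.88 to 8.08 in wt and from 9.32 to 8.36 in ko (-1.38 ± 0.19 SE, adjusted p = 0.0463). Lce1a1 of the same family fell from 7.15 to 5.76 and from 6.85 to 5.88 (-1.18 ± 0.12 SE, adjusted p = 0.0198). In all 3, both day 15 arrays lay below both day 11 arrays, which follows from naming the called genes. With the mean of its probe sets Lor had a step of -0.79 (adjusted p = 0.082).

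Sprr1b went from 10.79 to 6.89 in wt and from 10.22 to 8.07 in ko, a step of -3.03 ± 0.71 SE that did not pass the test (adjusted p = 0.211). Krt16, a keratin of activated keratinocytes, went from 10.92 to 9.14 and from 10.61 to 9.20 (adjusted p = 0.234). Krt1, a keratin of the suprabasal layers, went from 10.08 to 8.86 and from 10.04 to 8.48 (adjusted p = 0.195). These large steps were thus not told apart from the spread of the whole time course. Of the basal layer markers, Krt14 went from 9.65 to 8.0 in wt and from 9.29 to 8.64 in ko (-1.15 ± 0.89 SE, adjusted p = 0.714), its partner Krt5 went from 6.17 to 6.33 in wt and from 6.08 to 6.35 in ko, and Trp63, the p63 transcription factor of stratified epithelia, had a step of -0.07 ± 0.21 SE. Ivl, involucrin, was low on day 11, at 6.49 and 6.35, and at 5.64 and 5.82 on day 15.

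Several called genes outside the list are known from the upper epidermis. They are picked here for that known role, and no list of them was tested. Rptn, repetin of the epidermal granular layer, fell from 9.50 to 6.99 in wt and from 9.40 to 7.12 in ko (-2.40 ± 0.28 SE, adjusted p = 0.0303). Dsc1, a desmosomal cadherin of the upper epidermis, fell from 7.85 in wt and 7.63 in ko to the floor on both day 15 arrays, at least 4.28-fold (adjusted p = 0.0036). Cdsn, corneodesmosin, fell from 9.59 to 7.43 and from 9.26 to 7.68 (-1.87 ± 0.19 SE, adjusted p = 0.0194). These 3 are proteins of the outer epidermal cells or of the junctions between them. Cnfn, cornifelin, fell from 10.86 to 8.84 in wt and from 10.48 to 9.14 in ko (-1.68 ± 0.20 SE, adjusted p = 0.0366). With the mean of probe sets the steps of Rptn and Dsc1 were -0.80 (adjusted p = 0.068) and -1.05 (adjusted p = 0.0214). Kprp and Lce1a2 fell as well, by 1.5 and 1.24 on the log2 scale. Mt4, the metallothionein of stratified squamous epithelia, fell from 9.10 to 7.26 and from 8.85 to 7.04 (-1.82 ± 0.23 SE, adjusted p = 0.0414). Calm4, a calmodulin-like protein of the epidermis, fell from 10.96 to 9.0 and from 10.58 to 9.13 (-1.70 ± 0.22 SE, adjusted p = 0.043).

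Protease inhibitors and secreted defence proteins were among the fallers. Spink5, which restrains the proteases of the skin barrier, fell from 8.01 to the floor in wt and from 7.39 to 5.84 in ko (-1.96 ± 0.19 SE, adjusted p = 0.0183). Serpinb2, plasminogen activator inhibitor of the second type, fell from 8.60 to 6.49 and from 8.28 to 6.75 (-1.82 ± 0.19 SE, adjusted p = 0.0199). Defb1, a beta-defensin, fell from 7.17 and 7.4 to 5.64 and 5.75 (-1.59 ± 0.12 SE, adjusted p = 0.006). The wt signal of Spink5 and Defb1 ended at the floor, so their steps are lower limits. Il1f9, an epithelial cytokine of the interleukin-1 family, fell by 1.28 and Saa1, an acute phase protein, by 1.67 on the log2 scale. Scgb1a1, the secretoglobin of airway club cells, fell from 8.41 in wt and 7.24 in ko to the floor, at least 4.53-fold (adjusted p = 0.0443). Anxa10, Nptx1, Krtap13 and 3110040M04Rik fell by 1.93, 1.8, at least 1.65 and at least 2.47, from at most 8.27 on day 11 to between 5.64 and 6.06 on day 15. With the mean of probe sets the steps of Anxa10 and Nptx1 were -0.96 (adjusted p = 0.0253) and -0.98 (adjusted p = 0.0556). S100a9, a calcium-binding protein of myeloid cells and inflamed epidermis, went from 8.76 to 6.49 in wt and from 8.63 to 6.24 in ko (adjusted p = 0.208), and Hmox1, heme oxygenase, at 9.44 and 8.17 in wt and 9.85 and 8.69 in ko (adjusted p = 0.105). Neither passed the test although both were more than 2-fold lower in both genotypes.

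In the wider epithelial list 0 of 25 members rose and 0 fell, and by unadjusted p 1 was higher and 4 lower. Of its members 15 were negative and 2 positive in both genotypes, against 32.7% and 31.2% of all genes tested. Its median step was -0.30, with -0.54 in wt and -0.22 in ko. Dsp, desmoplakin of the desmosome, went from 11.15 to 9.83 in wt and from 10.85 to 9.98 in ko (adjusted p = 0.267). Cdh1, E-cadherin, had a step of -0.24 ± 0.29 SE, and Epcam, an adhesion protein of epithelia and of pluripotent cells, went from 8.52 to 9.13 and from 8.26 to 9.10 (adjusted p = 0.402). The mesenchymal list of 33 genes had 0 calls, 1 by unadjusted p, and a median step of -0.03. Col1a1 had a step of 0.08 ± 0.18 SE and Vim, vimentin, one of -0.07 ± 0.12. Twist2, a transcription factor of dermal fibroblasts, went from 10.62 to 9.98 in wt and from 10.65 to 10.20 in ko (adjusted p = 0.105). All 10 contractile genes tested also missed the threshold, 3 being lower by unadjusted p, against 5.57% of all genes tested. The median was -0.56, and 8 members were negative in both genotypes, against 32.7% of all genes tested. Among these 8 were Tagln (-0.69 ± 0.31 SE) and Myl9 (-0.92 ± 0.35 SE).

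Some of the fallers were neighbours in the genome. Of the 46 genes at least 2-fold lower with a chromosome in RefSeq, 11 (23.9%) were on chromosome 3, against 4.95% of all genes tested. They were Crct1, Kprp, Lce1a2, Lce1f, Lce3a, Lce3f, Lor, Rptn, S100a9, Sprr1b and Sprr2d, genes of the epidermal differentiation complex. Another 4 (8.7%) were on chromosome 18, against 2.55%, among them the neighbours Dsc1 and Dsc2. In all, 15 of the 46 stood directly beside another of them in the order of tested genes, a count given without a test. Many are related copies, so cross-reading between their probe sets was not tested.

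Both Slc38a5 and Slc36a2, carriers of amino acids, rose. Slc38a5, which carries glutamine and related amino acids, was at the floor on both day 11 arrays and at 9.57 in wt and 8.70 in ko on day 15. It rose at least 11.2-fold (adjusted p = 0.0198). Slc36a2, a proton-coupled carrier of small amino acids, rose from 6.25 to 7.97 in wt and from 6.21 to 7.33 in ko (1.42 ± 0.19 SE, adjusted p = 0.0462). Slc7a3, a carrier of cationic amino acids, went from 7.35 to 8.99 and from 7.04 to 8.27, and Cth, of cysteine synthesis, from 8.45 to 10.24 and from 8.35 to 9.56, without passing the test (adjusted p = 0.2 and 0.105). The list of 14 amino acid and one-carbon genes as a whole stayed near 0, with a median of 0.10 and Slc38a5 as its 1 call.

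Other genes that rose have varied known roles. Wfdc21, a small secreted protein with a whey acidic protein domain, rose from 6.19 to 9.34 in wt and from the floor to 8.48 in ko (adjusted p = 0.0036), and its step of 3.0 ± 0.19 SE is a lower limit. Its neighbour in the genome, Wfdc17, rose from 8.98 to 10.16 and from 9.10 to 10.53 (1.31 ± 0.12 SE, adjusted p = 0.0183). Hpx, hemopexin, which binds free heme, rose from 7.35 to 8.72 and from 6.52 to 8.13 (1.49 ± 0.10 SE, adjusted p = 0.0044). All 3 had both day 15 arrays above both day 11 arrays, again no added support in genes named for their steps. Col15a1, a basement membrane collagen, rose from 8.74 to 9.82 in wt and from 8.52 to 9.73 in ko (1.14 ± 0.11 SE, adjusted p = 0.0183). Acvrl1, a receptor of the TGF-beta family, and Cyp2f2, a cytochrome P450, rose by 0.94 ± 0.12 and 1.21 ± 0.13 SE, the former with a step of 0.61 and no call (adjusted p = 0.208) with the mean of probe sets. Orm1, an acute phase protein, was at the floor on day 11 and at 7.43 and 7.26 on day 15 (adjusted p = 0.232). In the complement and acute phase list of 10 genes 0 were called and 5 were higher by unadjusted p, against 5.06% of all genes tested. In both genotypes 9 were positive, against 31.2% of all genes tested, and the median was 0.38. Hp, haptoglobin, had a step of 0.50 ± 0.18 SE and Lcn2, lipocalin 2, one of 0.55 ± 0.19.

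Of 17 macrophage and blood genes, 2 rose and 0 fell, against 0.132% and 0.249% of all genes tested. In both genotypes 12 were positive, as were 31.2% of all genes tested, and the list median was 0.43. Tyrobp, the signalling adaptor of myeloid receptors, rose from 7.09 to 7.96 in wt and from 7.31 to 8.26 in ko (0.91 ± 0.12 SE, adjusted p = 0.043). Ptprc, the CD45 of blood cells, was at the floor on both day 11 arrays and at 6.64 and 6.4 on day 15, at least 1.84-fold higher (adjusted p = 0.0463), with a step of 0.44 and an adjusted p of 0.192 with the mean of probe sets. All 10 macrophage markers on the array were above the floor on both day 15 arrays, with medians of 7.52 in wt and 7.87 in ko, against 9 markers and medians of 7.18 and 7.27 on day 11. Csf1r, the macrophage growth factor receptor, had a step of 0.60 ± 0.24 SE and Lyz2, lysozyme, one of 0.56 ± 0.25, neither called. Set against the middle step, from day 15 to day 19, 5 of the 17 had a called difference. The median difference, early minus middle, was 1.68. Of all genes tested, 0.249% were called higher and 0.171% lower in that comparison. The share of these cells in the cultures was not measured.

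Genes of the pluripotent state were higher on day 15 mainly in the wt culture, and 0 of 27 tested passed, with 6 higher and 0 lower by unadjusted p. Over all genes tested those unadjusted shares were 5.06% and 5.57%. The wt median step was 0.75 and the ko median 0.00, and 9 further members, Esrrb, Zfp42 and Dppa3 among them, were at the floor on all 4 arrays. Nanog, a central factor of the network, was at the floor on day 11, at 7.28 in wt on day 15 and at the floor in ko. Sall4 had 7.52, Tet1 7.34, Lin28a 7.24 and Sox2 6.54 in wt on day 15 and were at the floor on the other 3 arrays. Like Nanog, these genes were tested only through the wt array of day 15, and the floor sets their ko step to 0. The gap between the wt and ko medians thus comes in part from the filter. The median step of the list was 0.45, and 0.23 for the 16 members above the floor on all 4 arrays. The wt and ko medians of those 16 were not taken. Gdf3, a ligand of the TGF-beta family, left the floor in both, at 7.92 in wt and 6.55 in ko. L1td1, an RNA-binding protein of pluripotent cells, went from 7.51 to 10.25 in wt and from 7.03 to 8.40 in ko (adjusted p = 0.243). Dppa5a, another such protein, went from 5.81 to 7.45 and from 5.95 to 7.31 (adjusted p = 0.368). L1td1 and Dppa5a were the 2 members at least 2-fold higher in both genotypes. The probe sets of the factors supplied moved little: Pou5f1 (Oct4) went from 10.58 to 10.94 in wt and from 10.51 to 10.32 in ko, Klf4 had a step of -0.12 ± 0.12 SE and Myc one of -0.27 ± 0.18. Whether these probe sets also read the introduced copies was not tested.

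The 44 genes at least 2-fold higher in both genotypes divided by their level in the established clones. There were 11 with more signal in all 5 iPSC clones than on either day 15 array: 1700019D03Rik, Bex1, Bex4, Cth, Dppa5a, L1td1, Morc1, Mtm1, Rhox5, Slc7a3 and Stk26. Another 30, among them Adipoq, Car3, Cd36, Cidec, G0s2, Slc38a5, Wfdc21, Hpx and Col15a1, had less signal in all 5 clones. The median of the 11 was 7.31 on day 11 in wt, 8.99 on day 15 and 10.73 on day 19, and 7.04, 8.40 and 10.71 in ko. On the same days the wt median of the 30 was 6.89, 9.03 and 8.88, and the ko median 6.72, 9.0 and 8.46. The median of the 11 was thus higher again on day 19, while that of the 30 was not. The genes were picked for high day 15 signals, and the groups were split by the same day 15 arrays. A lower median of the 30 on day 19 can follow in part from that choice, so the contrast is a description. Single genes of the 30 differed from their median: Slc38a5 was at 11.02 in wt and 11.64 in ko on day 19, above day 15, as were Klk1, Mmp8, Wfdc17 and Aldh1a2. By comparison, 5057 of the 12844 genes tested were higher in all 5 clones than on both day 15 arrays and 4519 lower.

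Of the 11 genes higher in the clones, 6 (54.5%) were on the X chromosome, against 1 of the 30 others (Slc38a5) and 3.13% of all genes tested. These 6 were Bex1, Bex4, Mtm1, Rhox5, Slc7a3 and Stk26. Bex1, an adaptor protein of the brain-expressed X-linked family, went from 8.41 to 11.40 in wt and from 8.13 to 9.78 in ko. Rhox5, a homeobox gene of the reproductive cluster, went from 7.31 to 8.61 and from 7.16 to 8.57. Mtm1, the phosphatase myotubularin, went from 10.45 to 12.36 and from 10.03 to 11.54. Another of its probe sets had steps of 1.81 in wt and 1.58 in ko, and a further one had steps of -0.22 and -0.06. No gene of the 6 passed the test, and their share on the X chromosome was not tested. Of the 47 genes at least 2-fold lower, 35 had less signal in all 5 clones than on both day 15 arrays, and 28 were at the floor in all 5. Of all 12844 genes tested, 4519 had less signal in all 5 clones and 819 were at the floor in all 5.

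**Figure D3:**
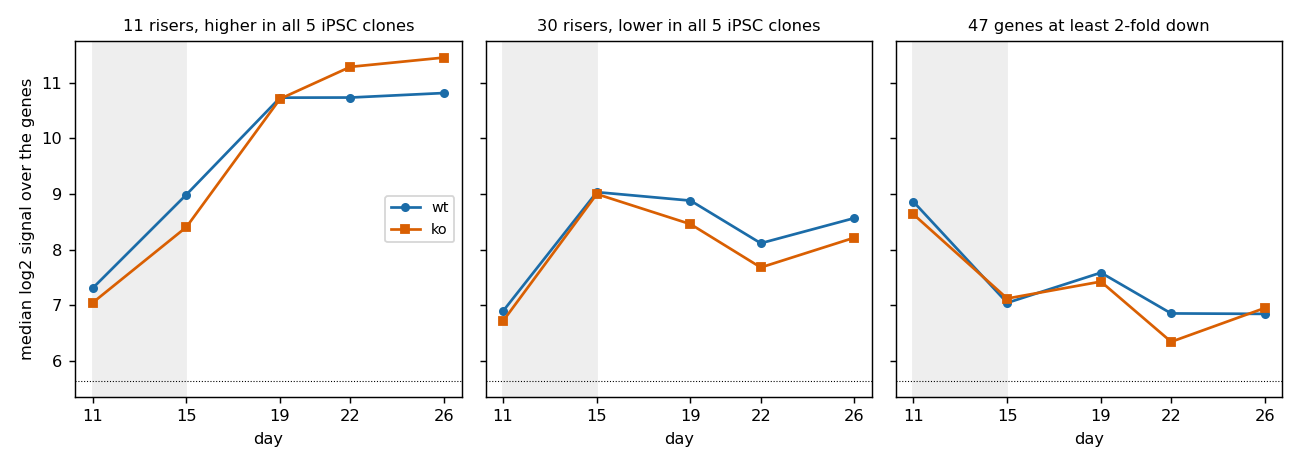
Median log2 signal on each culture day in wt (blue) and ko (orange) of the 11 risers with more signal in all 5 iPSC clones, the 30 risers with less, and the 47 genes at least 2-fold lower on day 15, with the early step shaded. The 11 rise from 7.31 to 8.99 to 10.73 in wt over days 11, 15 and 19, while the 30 are at their highest median on day 15 (9.03 in wt). All groups were chosen by their day 15 signals, which in part sets these courses.

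Cell cycle and interferon genes had median steps of opposite sign in the wt and ko cultures. Of 25 mitotic genes 0 were called, 0 also by unadjusted p, and the median step was 0.69 in wt and -0.11 in ko. Mki67, a proliferation marker, went from 9.48 to 10.10 in wt and from 9.16 to 9.0 in ko. Top2a, the DNA topoisomerase of dividing cells, went from 9.70 to 10.57 in wt and from 9.35 to 9.24 in ko. The 25 DNA replication genes had medians of 0.54 in wt and -0.16 in ko, with 0 calls and 1 by unadjusted p, and all 25 had the larger step in wt. Over all genes tested the wt step was the larger in 46.7%. With 1 array per genotype and day the difference between genotypes has no error of its own and was not tested.

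Of 31 interferon-induced genes 0 were called, 0 also by unadjusted p, with medians of 0.31 in wt and -0.26 in ko. Cxcl10, a chemokine induced by interferon, went from 10.52 to 12.55 in wt and from 10.75 to 9.17 in ko. Rsad2, the antiviral protein viperin, went from 10.11 to 11.52 and from 9.98 to 8.93, and Mx1, an antiviral GTPase, from 6.73 to 8.57 and from 6.89 to 5.98. On day 11 both cultures were close in these genes, and on day 15 the wt culture was the higher. In all, 3 genes were at least 2-fold higher in wt and at least 2-fold lower in ko (0.0234%), and 0 the reverse (0%). Other members, such as Oas2 (-0.47 ± 0.39 SE) and Bst2 (-0.36 ± 0.18 SE), were lower on day 15 in both. Krt18, a keratin of simple epithelia, went the other way, from 8.32 to 7.68 in wt and from 7.89 to 8.82 in ko, as did the tight junction protein Cldn3, from 8.27 to 7.74 and from 7.82 to 8.30.

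**Figure D4:**
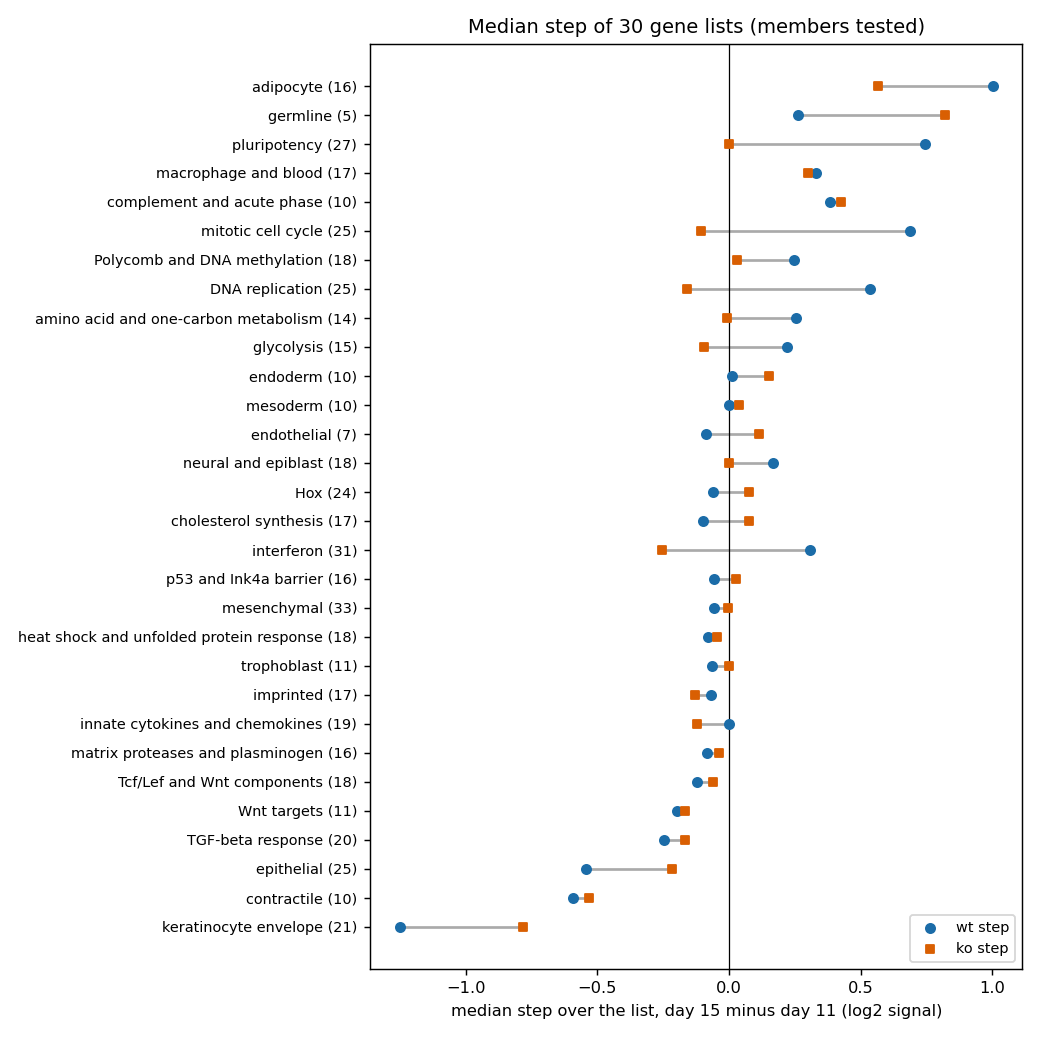
Median step (day 15 minus day 11, log2 signal) of each of 30 gene lists in wt (blue circles) and ko (orange squares), with the number of members tested in brackets. The adipocyte list has the highest and the keratinocyte envelope list the lowest median in wt. In ko the germline list is the highest (0.82, with 5 members tested) and the keratinocyte envelope list the lowest. The mitotic, DNA replication, interferon, glycolysis, and amino acid and one-carbon lists lie above 0 in wt and below 0 in ko. The endothelial, p53 and Ink4a, cholesterol and Hox lists lie the other way.

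Similarity to an established clone followed the same pattern. The correlation across 14228 genes with the OSK wt clone was 0.723 on day 11 and 0.749 on day 15 in wt, and 0.715 and 0.709 in ko, a description with no test, since the genes are not independent.

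The early step was then set against the middle step, from day 15 to day 19, which lasts the same 4 days and shares the day 15 arrays. The difference passed the test for 32 genes that were higher in the early step (0.249%) and 22 that were lower (0.171%). Adipoq had the largest difference, 6.08 ± 0.23 SE (adjusted p = 0.000476), with 10.99 in wt and 9.96 in ko on day 19, below its level on day 15. Col15a1 was at 7.54 and 7.51 on day 19, below its day 11 level (difference 3.40 ± 0.19 SE, adjusted p = 0.0036), and Cd36 and Wfdc21 also differed, by 3.33 and 3.28. C1qb, a complement protein of macrophages, went from 7.89 and 8.45 on day 15 to 5.80 and 5.87 on day 19 (2.93 ± 0.26 SE, adjusted p = 0.0178). Tyrobp, at 6.08 and 6.30 on day 19, went the same way. These genes thus came up, or held, to day 15 and were lower by day 19.

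Among the genes lower in the early step than in the middle one were Egr1 and Fos. Egr1, a zinc finger factor of the growth response, was at 10.42, 9.30 and 11.87 on days 11, 15 and 19 in wt and at 10.54, 9.62 and 11.77 in ko (-3.37 ± 0.41 SE, adjusted p = 0.0461). Fos, a subunit of AP-1, was at 9.76, 9.54 and 12.35 in wt and 9.65, 9.46 and 12.11 in ko (-2.94 ± 0.41 SE, adjusted p = 0.0496). Dsc1, 3110040M04Rik and Calm4 were lower as well, since each was lower on day 15 than on days 11 and 19. Lor showed this too, at 7.15 on day 15 and 8.83 on day 19 in wt and at 7.09 and 7.92 in ko, while Cnfn went on down to 8.10 and 7.77. Against the last step, from day 22 to day 26, which shares no array with the early one, 3 genes were higher (Adipoq, Wfdc21 and Hpx, 0.0234%) and 5 lower (3110040M04Rik, Dsc1, Anxa10, Defb1 and Nptx1, 0.0389%). With any 1 of the arrays of days 11 and 15 left out, 1 to 3 genes were higher and 0 to 2 lower than in the middle step, and 1 to 2 higher and 0 lower than in the last.

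**Figure D5:**
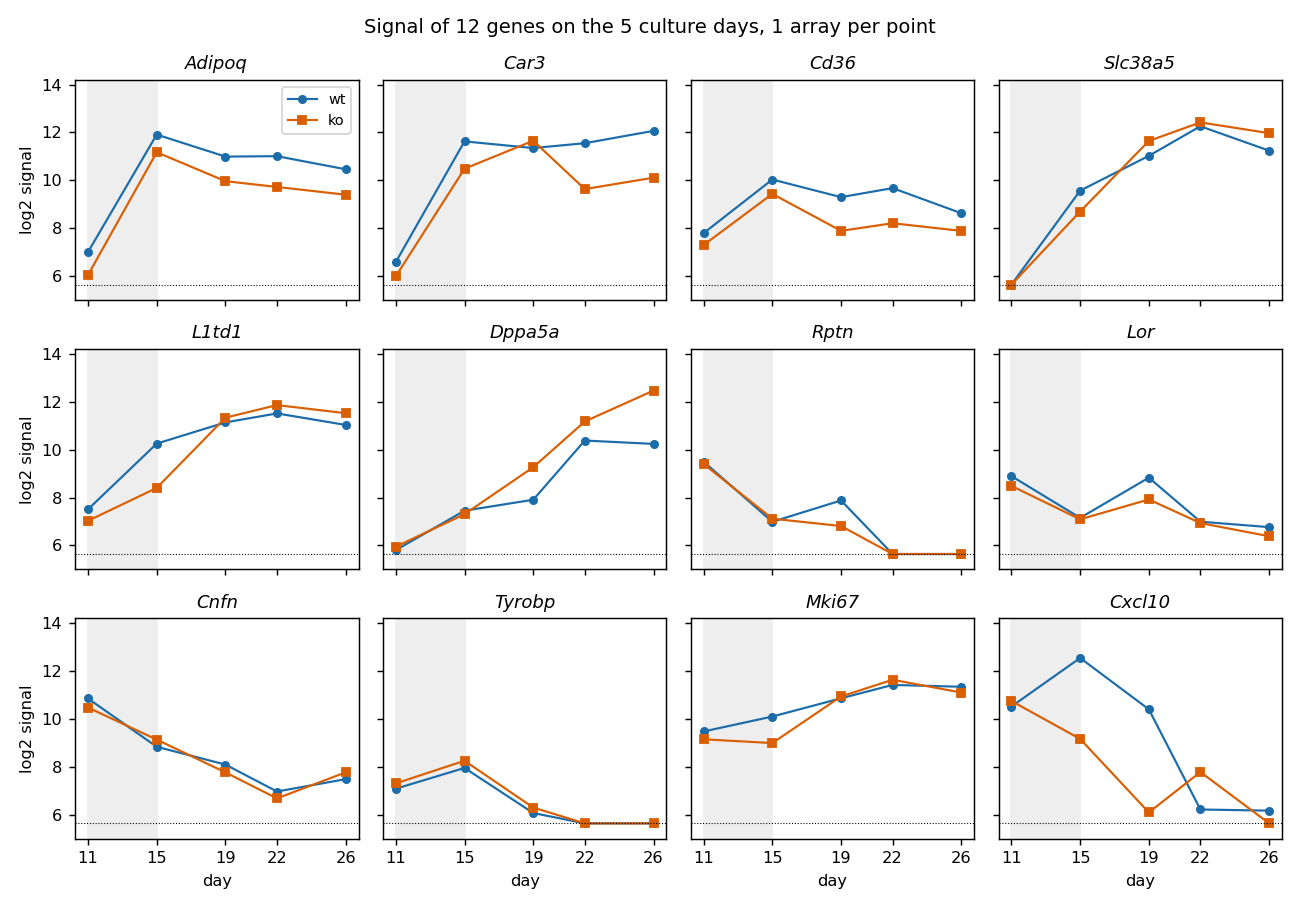
Log2 signal of 12 genes on days 11, 15, 19, 22 and 26 in wt (blue circles) and ko (orange squares), 1 array per point, with the early step shaded and the floor dotted. Adipoq, Car3, Cd36 and Slc38a5 climb in the shaded interval in both genotypes, Rptn, Lor and Cnfn drop, and Mki67 and Cxcl10 part between the genotypes.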

How the data were processed

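The deposited table held log2 values for 40508 probe sets on 18 arrays, which the authors made with RMA, per the submitters' processing notes; its version and settings were not given in those notes. Levels below 50 are at a floor of 5.64, seen in the values. Names came from the platform annotation: 31076 probe sets had 1 gene symbol, 636 several and 8796 none, giving 17903 genes, each read from its probe set with the highest mean.

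limma 3.58.1 in R 4.3.3 fitted day and genotype to the 10 culture arrays, with 4 residual degrees of freedom and Benjamini-Hochberg adjustment. The genotype term is the block that pairs the arrays, since each day's 2 arrays come from a wt and a ko culture. The prior variance (SD 0.118, 2.8 degrees of freedom) came from genes above the floor on all 10 arrays; genes with a floored array got at least that variance, and those at the floor on all 4 early arrays were left out. Tested on simulated data of the early step with 200 changed genes among 17903, the code found 74.8% of changes of log2 1 and 95.2% of log2 2, with 4.2% false calls. The simulated noise was independent between arrays, and changes were placed only in genes of higher mean signal. These rates thus check the code and need not hold for the calls made here. Of the 49 calls, 28 had a floored array.

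The 15 genes called in each direction with the largest smaller-genotype step, list members, the factors, and genes of opposed direction or differing between steps could be named; Gpd1, Mrap, Hmox1, S100a9, Rhox5, Bex1, Mtm1 and other 2-fold genes were chosen after their values were seen. The comparison and the 30 gene lists were chosen with earlier results of these data known. Precision is limited by 1 array per genotype and day.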

Additional observations from a re-analysis of the deposited data

Results flagged for a closer look

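These values differed between the genotypes in sign, or come from probe sets without a gene name. None of the differences was tested, since each genotype had 1 array per day. As wt step minus ko step, the difference of medians was 0.56 for the interferon list, 0.80 for the mitotic list and 0.69 for the DNA replication list. For single genes up in wt and down in ko it was 3.61 for Cxcl10, 2.45 for Rsad2, 2.58 for Cmpk2, a nucleotide kinase induced by interferon, 2.76 for Mx1 and 2.99 for Egln3, a prolyl hydroxylase of the hypoxia response, which went from 6.6 to 8.75 in wt and from 6.57 to 5.73 in ko. For genes down in wt and up in ko it was -1.58 for Krt18, -1.27 for H60c, -0.96 for Mroh4, -1.0 for Cldn3 and -0.91 for Phlda2. The change in correlation with the OSK wt clone was 0.0314 larger in wt than in ko. Among the probe sets with no gene name, 2 were at least 2-fold higher and 4 at least 2-fold lower in both genotypes.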

How the results depend on the processing

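No called gene changed direction under the alternatives run. List medians near 0 or unlike between genotypes did: 13 medians of 12 lists changed sign, 9 of them in 1 genotype alone, such as mitotic (-0.11) and DNA replication (-0.16) in ko, and the interferon median (0.01) was -0.02 with the mean of probe sets and -0.26 in ko alone. Without the wt array of day 15 the steps of Pou5f1 and Sox2, not called, were -0.29 and -0.17. Counts of genes called in the early step (17 rose, 32 fell) moved most. They were 178 and 245 with the 4 arrays of days 11 and 15 alone, 5 and 2 among genes above the floor on all 10 arrays, 9 and 17 with no filter, and 8 and 17 with the mean of probe sets. Without the replicate block 11 rose, with the plain prior over all genes 17 fell, and with the 6 arrays of days 11, 15 and 19, chosen after seeing the data, 37 rose. Leaving out 1 array left 1 to 9 that rose and 0 to 12 that fell. Of the counts against the middle step (32 higher, 22 lower), 20 were higher without day 26; without the block they were 73 and 47, above the floor 8 and 1, with no filter 13 and 3, with the mean of probe sets 12 and 3, with 6 arrays 651 and 490, and with 1 array left out 1 to 3 and 0 to 2. Against the last step (3 and 5) they were 1 and 8 without the block and 1 and 0 above the floor, 3 were lower with no filter and 1 with the mean of probe sets, and 1 array left out gave 1 to 2 higher and 0 lower. At 1.5-fold, 115 genes were higher and 169 lower in both genotypes, and at 4-fold 6 and 4. The macrophage median (0.43) was 0.39 with the mean of probe sets or above the floor on all 4 arrays, 0.33 in wt alone and 0.30 in ko alone. The causes were not tested, apart from the fewer genes or arrays that some settings use. Of the other list medians under alternatives, 21 moved by more than their spread and 117 did not. The pluripotency, interferon, macrophage, keratinocyte envelope, adipocyte, mitotic and DNA replication lists are outside these counts. That spread came from the gap between the wt and ko medians, so lists on which the genotypes differed were less readily counted as moved. Of single-gene values 328 lost their call and 453 kept their side of the threshold. The floor hides changes below 50, and 1 array per genotype and day gives no error within a genotype.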
